A study of Mus musculus with 27 samples.

Results

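Chemokines are small secreted proteins that steer white blood cells along concentration gradients, and this account follows 10 chemokine genes, Ccl2, Ccl3, Ccl4, Ccl5, Ccl7, Ccl9, Ccl12, Cxcl1, Cxcl10 and Cxcl16, while mouse microglia were driven towards neurons. The genes were taken by symbol from a list of CC and CXC chemokines. That list was chosen with earlier results of these data known, so it was not blind to their values. All 10 were found among the 24293 symbols of the RNA tables. All 10 also passed the filter for testing, which asked for 1 FPKM or more in 3 or more libraries and kept 13602 genes.

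The RNA data held 5 groups of 3 libraries from C57BL/6 mice, all wild type and all started from postnatal day 1 cortex. ND1 day 7 and ND1 day 2 were primary microglia infected with a lentivirus for ND1 and another for M2rtTA, the doxycycline-dependent activator, then kept in a neuronal medium (Neurobasal, B27, BDNF, GDNF and NT3) that received doxycycline a single time. Control day 7 and control day 2 were primary microglia labelled as control, whose medium and virus the labels do not state, so the medium change, the infection and ND1 cannot be told apart in a comparison of ND1 with control. The neuron group was cultured from the same tissue and age in Neurobasal with B27 and has no day label. CpG methylation was measured in 1 ND1 and 1 control library with no day label, and 10 chromatin libraries were not analysed here. What ND1 stands for is not spelled out in the labels, nor whether replicates were separate cultures, so each p-value measures only the spread between these libraries.

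CC chemokines carry a pair of adjacent cysteines near their start and CXC chemokines have a single residue between them. Each acts through a G protein-coupled receptor on the target cell, and the receptors overlap in the ligands they accept. Microglia, the resident macrophages of the brain, make many of them, and transcription of several is known to rise when NF-kappaB or interferon signalling is active.

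Of the 10 genes, 8 lie on mouse chromosome 11 and 2 on chromosome 5 (GRCm38.p6, the mm10 assembly). Ccl2 (82035577-82037452), Ccl7 (82045712-82047525) and Ccl12 (82101845-82103399) sit side by side, with 8.26 kb between the first pair and 54.3 kb between the second. Ccl5 (83525778-83530518), Ccl9 (83572917-83578636), Ccl3 (83647843-83649378) and Ccl4 (83648624-83664683) follow farther along the same chromosome, while Cxcl16 (70454389-70459984) lies apart. Cxcl1 (90891245-90893121) and Cxcl10 (92346638-92348889) are on chromosome 5. The annotated spans of Ccl3 and Ccl4 share 755 bases, Cxcl16 shares 552 bases with Zmynd15, and the whole of Ccl5 and of Cxcl10 lies inside the spans of Gm32650 and Art3. Whether counting used strand is not stated, so reads from overlapping genes cannot be told apart, although Art3 stayed between 0 and 0.356 FPKM and Zmynd15 between 0.156 and 8.66 FPKM in all 15 libraries.

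RefSeq promoter sequence (GRCm38.p6) was at hand for 5 of the 10 genes. The 250 bases before the annotated start are shown for 4 of them that stand for different courses in these data: Cxcl1, the member that was higher in ND1 cells (chr5:90890995-90891244, plus strand), Cxcl10 (chr5:92348890-92349139, minus strand) and Ccl12 (chr11:82101595-82101844, plus strand), which were both lower at day 7 than at day 2 in control cells, and Ccl9 (chr11:83578637-83578886, minus strand), which was not. Each is written 5′ to 3′ in the direction of the gene, and capitals mark matches to the motifs searched.
Cxcl1: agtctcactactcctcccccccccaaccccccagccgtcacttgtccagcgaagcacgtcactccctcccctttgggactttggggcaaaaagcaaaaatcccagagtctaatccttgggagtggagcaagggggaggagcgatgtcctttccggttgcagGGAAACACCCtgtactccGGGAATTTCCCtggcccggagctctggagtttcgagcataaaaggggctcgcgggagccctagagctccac
Cxcl10: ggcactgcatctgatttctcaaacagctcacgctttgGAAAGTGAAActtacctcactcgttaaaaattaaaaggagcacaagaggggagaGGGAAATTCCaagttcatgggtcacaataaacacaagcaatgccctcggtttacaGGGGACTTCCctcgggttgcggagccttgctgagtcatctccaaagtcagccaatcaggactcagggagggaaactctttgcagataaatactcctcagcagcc
Ccl12: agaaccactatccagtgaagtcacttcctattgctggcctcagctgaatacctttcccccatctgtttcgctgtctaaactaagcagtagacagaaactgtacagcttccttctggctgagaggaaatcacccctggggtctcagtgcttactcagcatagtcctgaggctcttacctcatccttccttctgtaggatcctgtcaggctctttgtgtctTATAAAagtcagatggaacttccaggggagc
Ccl9: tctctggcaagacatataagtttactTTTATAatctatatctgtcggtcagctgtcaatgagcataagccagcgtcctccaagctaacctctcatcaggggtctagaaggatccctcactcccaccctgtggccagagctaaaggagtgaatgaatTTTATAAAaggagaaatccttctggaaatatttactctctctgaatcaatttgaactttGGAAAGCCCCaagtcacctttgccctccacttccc

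The motifs were an NF-kappaB-like run (GGG, any 3 bases, then TTCC), an interferon-response-like run (GAAA, any 2 bases, then GAAA) and the TATA box TATAAA, each read on both strands, and the choice was made with the known biology of these genes in view. Positions count back from the start at -1. Cxcl1 held 3 NF-kappaB-like matches, at -89 to -80, -71 to -62 and -70 to -61, the last pair being overlapping readings of the same stretch on opposite strands. Cxcl10 held 2, at -159 to -150 and -104 to -95, together with an interferon-response-like match at -213 to -204. Ccl9 held an NF-kappaB-like match at -35 to -26 and TATA box matches at -224 to -219, -94 to -89 and -92 to -87, and Ccl12 held a TATA box match at -31 to -26. Ccl3, the fifth promoter at hand, held none of the motifs, so the NF-kappaB-like run was in 3 of 5, the TATA box in 2 and the interferon-response-like run in 1. Over 32817 annotated promoters of the same length, 4.65% held the NF-kappaB-like run, 2.97% the interferon-response-like run and 12.4% the TATA box. A match is a description of letters, not a shown binding site.

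FPKM, a fragment count divided by transcript length in kilobases and by library size, is the deposited unit. Its sum over genes ranged from 429013 to 739846 per library and differed by group. It was 447561 to 461085 in ND1 day 7, 429013 to 483402 in neurons and 700518 to 739846 in control day 7. On day 2 it was 600293 to 618555 in ND1 cells and 679238 to 694090 in control cells. Read counts were not used here, and replicates correlated at 0.975 to 0.986 across the tested genes. The labelled cell types were checked with marker lists, given as the range of the summed FPKM in each group. The 15 pan-myeloid genes summed to 1089 to 1449 FPKM in ND1 day 7, 114 to 129 in neurons, 25687 to 27905 in control day 7, 18139 to 19749 in ND1 day 2 and 23667 to 24405 in control day 2. The 8 neuronal markers summed to 3550.5 to 3576 FPKM in ND1 day 7, 2529.9 to 2740.2 in neurons, 23.0 to 28.3 in control day 7, 580.4 to 720.4 in ND1 day 2 and 29.0 to 31.8 in control day 2. Of the 8 microglia markers, Tmem119 was weak throughout, at 1.08 ± 0.11 FPKM in control day 7 and 0.253 ± 0.071 FPKM in control day 2 (SD, n = 3), while C1qa averaged 4904 FPKM in control day 7 and 2540.4 FPKM in control day 2. Markers of astrocytes summed to 32.0 to 32.7 FPKM in ND1 day 7, 68.5 to 73.7 in control day 7, 18.7 to 20.6 in ND1 day 2 and 18.3 to 19.9 in control day 2, and those of fibroblasts and mural cells to 29.2 to 32.6 FPKM in ND1 day 7, 25.1 to 31.9 in control day 7, 5.71 to 6.80 in ND1 day 2 and 1.10 to 2.00 in control day 2. The 7 T and NK cell markers summed to 0.290 to 0.424 FPKM in ND1 day 7, 0.157 to 0.199 in neurons and 1.08 to 1.53 in control day 7. On day 2 they summed to 14.3 to 16.1 FPKM in ND1 cells and 1.90 to 2.25 in control cells. Of these, Cd3e, Cd3g and Nkg7 were at 0 in every library. Cd3d was not, at a mean of 0.169 FPKM in ND1 day 7 and 0.119 in neurons. Cd4 averaged 15.2 FPKM in ND1 day 2 and 1.97 FPKM in control day 2.

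Together the 10 chemokines took 0.0368% to 0.0454% of the FPKM sum in ND1 day 7 libraries and 0.00300% to 0.00327% in neurons, against 0.381% to 0.412% in control day 7 libraries. At day 2 they took 1.47% to 1.52% in ND1 cells and 1.92% to 1.98% in control cells. None of these ranges overlap. Ccl5 alone made up 44.0% to 46.6% of the members' summed FPKM in ND1 day 7 and 47.7% to 49.7% in control day 7, but 84.6% to 85.1% in ND1 day 2 and 82.6% to 83.4% in control day 2. Ccl2 was the largest part in neurons, at 32.1% to 39.1%. No member was at 0 in any library.

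**Figure D1:**
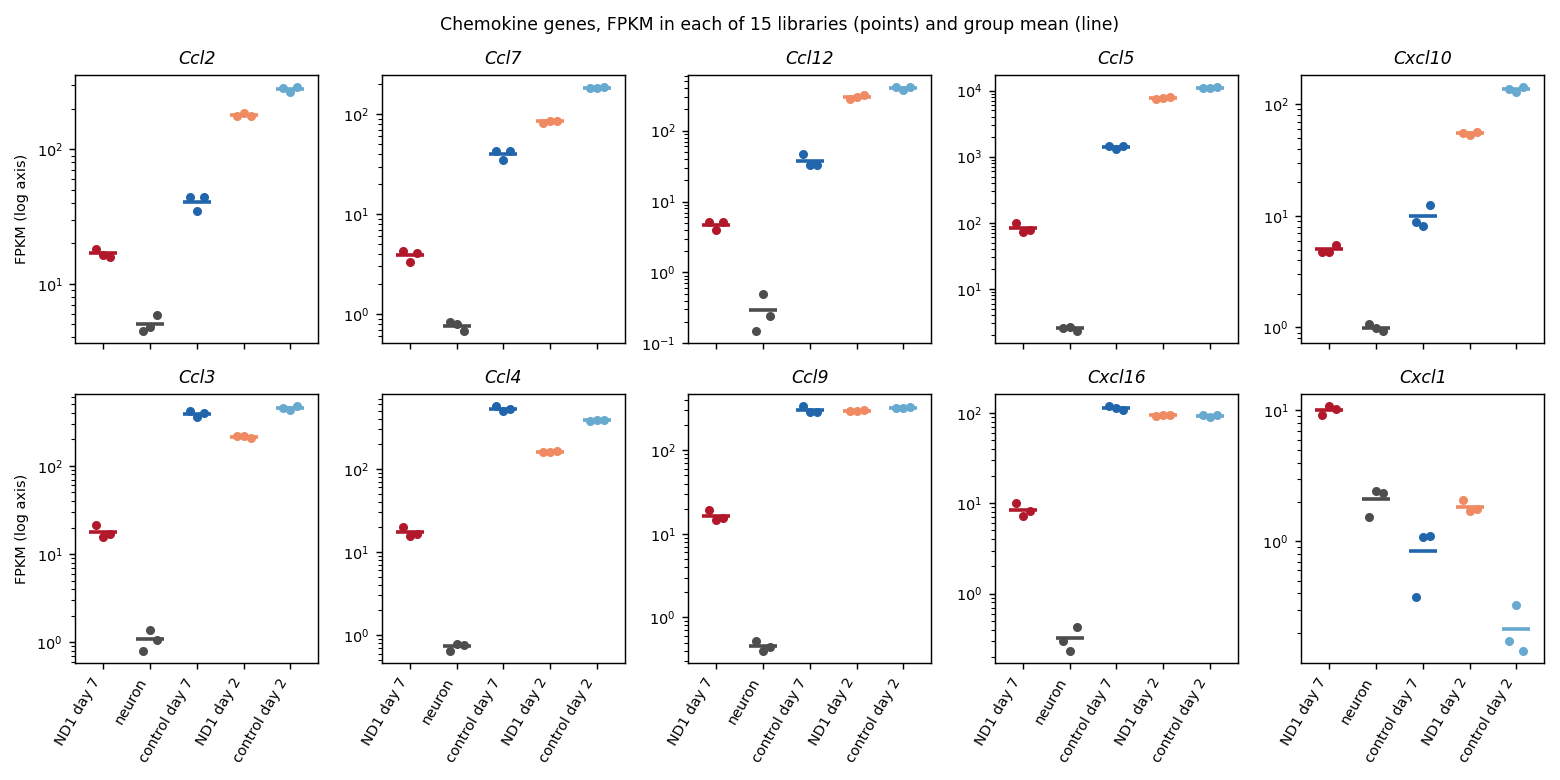
FPKM of the 10 chemokine genes (log axis, a panel for each gene) in each of the 15 libraries by group, with points for libraries and lines for group means. Of the 10 genes, 9 are lowest in neurons and next lowest in ND1 day 7, whereas Cxcl1 is highest in ND1 day 7, at 9.23 to 10.7 FPKM.

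By day 7 most chemokine genes were lower in ND1 cells than in control cells, and Cxcl1 was higher. At an adjusted p under 0.05 with a change of at least 1 on the log2(FPKM + 1) scale, the rule used for every call below, 8 of the 10 were lower in ND1 day 7 than in control day 7 (background 24.5% of the tested genes called lower), Cxcl1 was higher (background 25.7% called higher), and Cxcl10, at -0.84, was lower in every ND1 library but under the size rule. The median log2 change of the members was -3.34, beside 0.04 over all tested genes. At day 2 the same contrast called 4 members lower, Ccl3, Ccl4, Ccl7 and Cxcl10 (background 0.618%), and Cxcl1 higher (background 9.09%), with a median of -0.58 beside -0.04 over all tested genes. With quantile normalization Ccl3, Ccl7 and Cxcl1, at -0.96, -0.92 and 0.67, missed the size rule on day 2, which left 2 members called lower and 0 called higher. In bulk RNA, fewer cells of a type and less RNA per cell cannot be told apart.

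The ligands of CCR2, the receptor that draws monocytes, are Ccl2, Ccl7 and, in the mouse, Ccl12. Ccl2 stood at 18.2, 16.5 and 15.9 FPKM in ND1 day 7 libraries and at 4.47, 4.82 and 5.89 in neurons, against 44.0, 34.9 and 43.9 in control day 7 libraries. On day 2 it reached 177, 187 and 178 FPKM in ND1 cells and 287, 268 and 293 in control cells. All 5 groups were apart, in the order control day 2, ND1 day 2, control day 7, ND1 day 7 and neurons. The change from control to ND1 was -1.22 (SE 0.09, adjusted p = 1.34e-08) on day 7 and -0.64 (SE 0.09, adjusted p = 3.89e-05) on day 2, where it was under the size rule.

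Ccl7 had 4.32, 3.31 and 4.06 FPKM in ND1 day 7 and 0.829, 0.800 and 0.678 in neurons, against 43.4, 34.8 and 42.8 in control day 7. Its day 2 libraries held 81.6, 86.1 and 86.6 FPKM with ND1 and 183, 184 and 189 without. The ND1 libraries were below control on both days, by a log2 change of -3.08 (SE 0.08, adjusted p = 8.23e-14) on day 7 and -1.12 (SE 0.08, adjusted p = 5.00e-08) on day 2.

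Ccl12 was at 5.16, 3.96 and 5.10 FPKM in ND1 day 7 and at 0.149, 0.502 and 0.243 in neurons, against 47.2, 33.1 and 32.3 in control day 7. Day 2 values were 278, 294 and 314 FPKM in ND1 cells and 417, 374 and 413 in control cells. Every group was again apart from the next. Ccl12 fell by 2.73 on the log2 scale on day 7 (SE 0.14, adjusted p = 9.35e-11), and on day 2 its change of -0.44 (SE 0.14, adjusted p = 0.0115) was under the size rule.

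Ccl3, Ccl4, Ccl5 and Ccl9 attract macrophages and T cells, and Ccl3, Ccl5 and Ccl9 are ligands of CCR1. Ccl4 was the member most reduced on day 7, with 19.8, 15.4 and 16.4 FPKM in ND1 cells and 0.649, 0.783 and 0.766 in neurons, against 564, 491 and 525 in control cells. It had 159, 160.2 and 166 FPKM in ND1 day 2 and 380.3, 384 and 389 in control day 2. The log2 change was -4.86 (SE 0.07, adjusted p = 4.23e-16) on day 7 and -1.24 (SE 0.07, adjusted p = 3.84e-09) on day 2.

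Ccl3 behaved much like its neighbour Ccl4 against control, with 15.7 to 21.2 FPKM in ND1 day 7 and 0.800 to 1.38 in neurons, against 362 to 417 in control day 7. On day 2 its range was 208 to 219.8 FPKM in ND1 cells and 435 to 473 in control cells. Ccl3 fell by 4.38 on day 7 (SE 0.11, adjusted p = 2.22e-14) and by 1.07 on day 2 (SE 0.11, adjusted p = 8.52e-07). Reads in the stretch that the annotated spans share cannot be assigned to either gene with certainty.

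Ccl5 was the most abundant chemokine message outside the neurons. It reached 97.6, 72.5 and 78.1 FPKM in ND1 day 7 and 2.57, 2.69 and 2.30 in neurons, against 1439.8, 1321 and 1435 in control day 7. ND1 day 2 libraries held 7467, 7679.8 and 8000.2 FPKM and control day 2 libraries 10789, 10982 and 11420.5. Each group stood apart from the others. The change on day 7 was -4.07 (SE 0.09, adjusted p = 7.30e-15), whereas that on day 2, -0.52 (SE 0.09, adjusted p = 1.45e-04), missed the size rule.

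Ccl9 was lower with ND1 on day 7 and not called on day 2. Its range was 14.5 to 19.0 FPKM in ND1 day 7 and 0.399 to 0.519 in neurons, against 284 to 335 in control day 7. It was 292 to 300.3 FPKM in ND1 day 2 and 319.7 to 329.9 in control day 2. Control day 2 lay above ND1 day 2 without overlap, and control day 7 overlapped both. ND1 day 7 was lower by 4.14 (SE 0.08, adjusted p = 3.24e-15), and on day 2 the change was -0.14 (95% interval -0.31 to 0.04, adjusted p = 0.154).

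Cxcl16, a transmembrane chemokine that binds CXCR6 and is shed by ADAM proteases, was at 10.0, 7.27 and 8.18 FPKM in ND1 day 7 and at 0.297, 0.233 and 0.431 in neurons, against 118, 115 and 107 in control day 7. On day 2 the values were 93.0, 95.2 and 94.3 FPKM in ND1 cells and 93.9, 89.6 and 95.9 in control cells, which overlap. The day 7 change was -3.60 (SE 0.08, adjusted p = 1.84e-14) and the day 2 change 0.02 (95% interval -0.17 to 0.20, adjusted p = 0.875). Leaving out control day 2 replicate 2 gave -0.01 on day 2.

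Cxcl10, an interferon-induced ligand of CXCR3, had 4.75, 4.79 and 5.53 FPKM in ND1 day 7 and 1.07, 0.982 and 0.930 in neurons, against 8.88, 8.20 and 12.6 in control day 7. On day 2 it was at 55.5, 53.0 and 56.2 FPKM in ND1 cells and at 138, 129.9 and 144 in control cells. The groups did not overlap on either day. The change was -0.84 (SE 0.11, adjusted p = 5.58e-06) on day 7, under the size rule, and -1.31 (SE 0.11, adjusted p = 1.83e-07) on day 2, where Cxcl10 was the most reduced member.

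Cxcl1, a neutrophil attractant that acts through CXCR2, went the other way. It had 9.23, 10.7 and 10.3 FPKM in ND1 day 7 and 1.52, 2.43 and 2.34 in neurons, against 0.375, 1.08 and 1.09 in control day 7. ND1 day 2 libraries were at 2.06, 1.71 and 1.75 FPKM and control day 2 libraries at 0.173, 0.326 and 0.146. ND1 libraries were above control on both days without overlap, while neurons and ND1 day 2 overlapped. Cxcl1 rose by 2.61 on day 7 (SE 0.15, adjusted p = 5.42e-10) and by 1.23 on day 2 (SE 0.15, adjusted p = 8.19e-06), from control levels near or below 1 FPKM at which this scale understates a fold.

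Measured from the control day 2 mean, Cxcl1 in ND1 day 2 had covered 16.5% of its distance to the ND1 day 7 mean. This share is not particular to Cxcl1. It had a median of 17.1% over 670 neuron-high genes, with a middle range of 16.3% to 17.6%. Those genes had at least 10 FPKM in neurons and in ND1 day 7, and at least 20 times the control day 7 mean in neurons. Cxcl1, at 1.52 to 2.43 FPKM in neurons, does not meet that rule. The summed fibroblast and mural markers were also higher in ND1 than in control cells on day 2, at 5.71 to 6.80 against 1.10 to 2.00 FPKM. On day 7 the ranges of the sum overlapped, at 29.2 to 32.6 against 25.1 to 31.9 FPKM, but single genes of the list differed. Of 4 tested, 2 were called higher in ND1 day 7, Pdgfrb at 1.42 and Col1a1 at 1.36 (background 25.7%). None was called lower (background 24.5%). Acta2, the largest part of the sum, averaged 14.5 FPKM in ND1 day 7 and 21.0 in control day 7. The part of these markers in the Cxcl1 values was not tested.

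**Figure D2:**
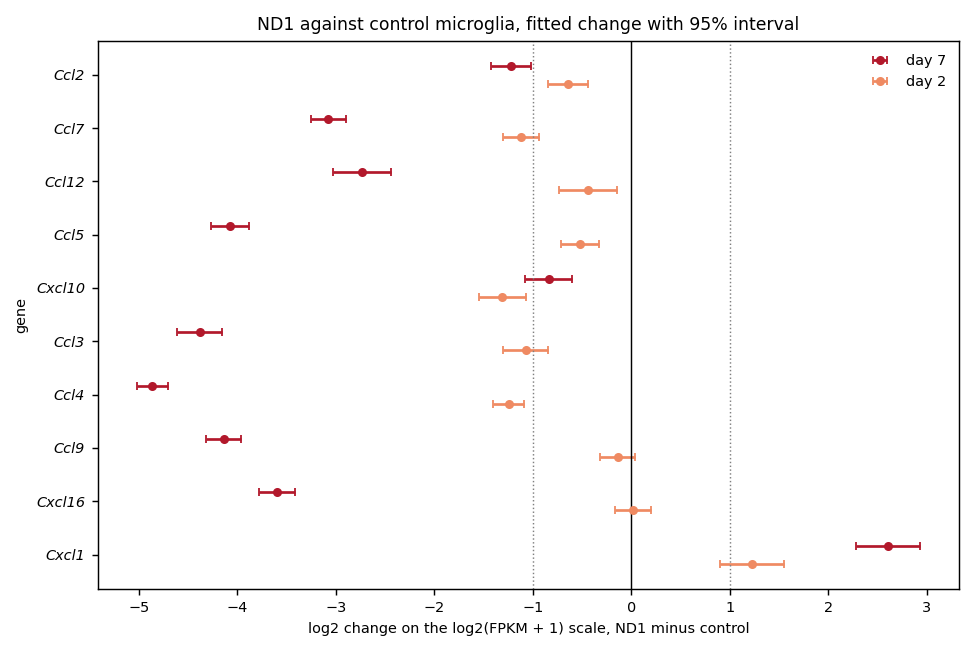
Fitted log2 change of each chemokine gene in ND1 against control cells (log2(FPKM + 1) scale), day 7 above day 2 in each row, with 95% intervals from the fit of all 15 libraries; dotted lines mark a change of 1. Ccl9 and Cxcl16 lie at 0 within their intervals on day 2 and at -4.14 and -3.60 on day 7, while Cxcl10 is the reduced gene whose fitted fall is larger on day 2.

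Whether the effect of ND1 differed between the days was tested as an interaction, the day 7 change minus the day 2 change. It was called lower for 7 members (background 20.8%) and higher for Cxcl1, at 1.38 (SE 0.21, adjusted p = 3.53e-05; background 20.5%). The most negative was Ccl9, at -4.00 (SE 0.12, adjusted p = 1.34e-12), then Ccl4 at -3.62, Cxcl16 at -3.61, Ccl5 at -3.55, Ccl3 at -3.31, Ccl12 at -2.29 and Ccl7 at -1.96. Ccl2, at -0.58 (SE 0.13, adjusted p = 0.00101), and Cxcl10, at 0.47 (SE 0.16, adjusted p = 0.0122), were under the size rule. The Cxcl1 call depends on the pseudocount: with 0.1 in place of 1 its interaction was 0.88 (adjusted p = 0.0817).

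Chemokine levels also changed over time in the control cells, in which 5 members were lower on day 7 than on day 2 (background 3.79% of the tested genes called lower) and none was called higher (background 3.9%). They were Cxcl10, at -3.69 (SE 0.11, adjusted p = 8.28e-12), Ccl12 at -3.40 (SE 0.14), Ccl5 at -2.98 (SE 0.09), Ccl2 at -2.76 (SE 0.09) and Ccl7 at -2.18 (SE 0.08). These are the 3 neighbours Ccl2, Ccl7 and Ccl12 with Ccl5 and Cxcl10. Control day 7 kept 7.21% ± 1.74 of the control day 2 mean for Cxcl10, 9.35% ± 2.09 for Ccl12, 12.6% ± 0.61 for Ccl5, 14.5% ± 1.85 for Ccl2 and 21.8% ± 2.58 for Ccl7 (SD over 3 libraries).

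The other 5 did not pass in control cells. Ccl3 changed by -0.21 (95% interval -0.44 to 0.01, adjusted p = 0.0882) and Ccl9 by -0.10 (95% interval -0.28 to 0.07, adjusted p = 0.282), and Ccl4, Cxcl16 and Cxcl1 by 0.45, 0.28 and 0.58, with adjusted p of 9.79e-05, 0.0106 and 0.00397. With a pseudocount of 0.1 Cxcl1 was called higher on day 7, at 1.51. Astrocyte markers were higher in control day 7, at 68.5 to 73.7 FPKM against 18.3 to 19.9 FPKM in control day 2, as were fibroblast and mural markers, at 25.1 to 31.9 against 1.10 to 2.00 FPKM. The part of these lists in the control changes was not tested.

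In ND1 cells 9 members were lower on day 7 than on day 2 (background 21.1%) and Cxcl1 was higher, at 1.96 (SE 0.15, adjusted p = 1.64e-08; background 22.6%). Ccl5 had the steepest fall, -6.54 (SE 0.09), followed by Ccl12 at -5.70 (SE 0.14), Ccl7 at -4.14, Ccl9 at -4.11, Ccl3 at -3.52, Ccl2 at -3.34, Cxcl16 at -3.34, Cxcl10 at -3.22 and Ccl4 at -3.17. Cxcl10 was the member whose change over time was smaller in ND1 than in control cells, -3.22 beside -3.69; that difference is the interaction given above.

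**Figure D3:**
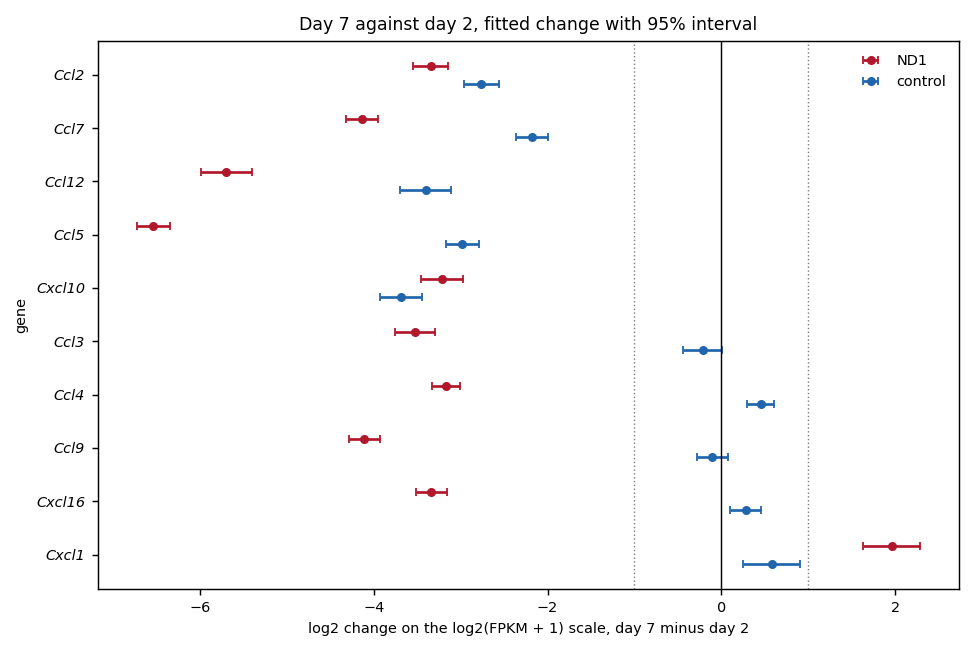
Fitted log2 change of each chemokine gene from day 2 to day 7 (log2(FPKM + 1) scale), ND1 cells above control cells in each row, with 95% intervals. In control cells Ccl2, Ccl7, Ccl12, Ccl5 and Cxcl10 lie at -2.18 or lower and the other 5 between -0.21 and 0.58, while in ND1 cells all but Cxcl1 lie at -3.17 or lower.

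The members were also set beside other genes that mark microglia against neurons, those with at least 50 FPKM in the control group of that day and not more than 1% of that level in neurons. This rule itself favours genes with low neuronal levels. Of the 10 members, 5 meet it on day 7 (Ccl3, Ccl4, Ccl5, Ccl9 and Cxcl16) and 8 on day 2 (all but Ccl2 and Cxcl1), and the others are given without a rank. On day 7 the 318 such genes kept a median of 5.11% of the control mean in ND1 cells, with a middle range of 4.28% to 6.10%. Ccl4, at 3.27% ± 0.44, Ccl3, at 4.58% ± 0.73, Ccl9, at 5.38% ± 0.80, and Ccl5, at 5.91% ± 0.94, lay in or below that range (SD, n = 3), and Cxcl16, at 7.51% ± 1.24, above it. Of the members outside the rule, Ccl7 kept 9.66% ± 1.30, Ccl12 12.6% ± 1.80, Ccl2 41.2% ± 2.94 and Cxcl10 50.7% ± 4.45, and Cxcl1 was at 1188% ± 90.8.

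On day 2 the 355 genes chosen the same way kept a median of 71.8%, with a middle range of 64.4% to 80.4%. Cxcl10 kept 39.9% ± 1.23, Ccl4 42.1% ± 0.99, Ccl7 45.8% ± 1.50 and Ccl3 47.4% ± 1.39, and at most 18 of the 355 genes lay below any of these 4. Ccl5, at 69.7% ± 2.42, and Ccl12, at 73.7% ± 4.48, were in the middle range, and Ccl9, at 90.9% ± 1.35, and Cxcl16, at 101% ± 1.19, above it. Ccl2, outside the rule, kept 63.9% ± 1.90.

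**Figure D4:**
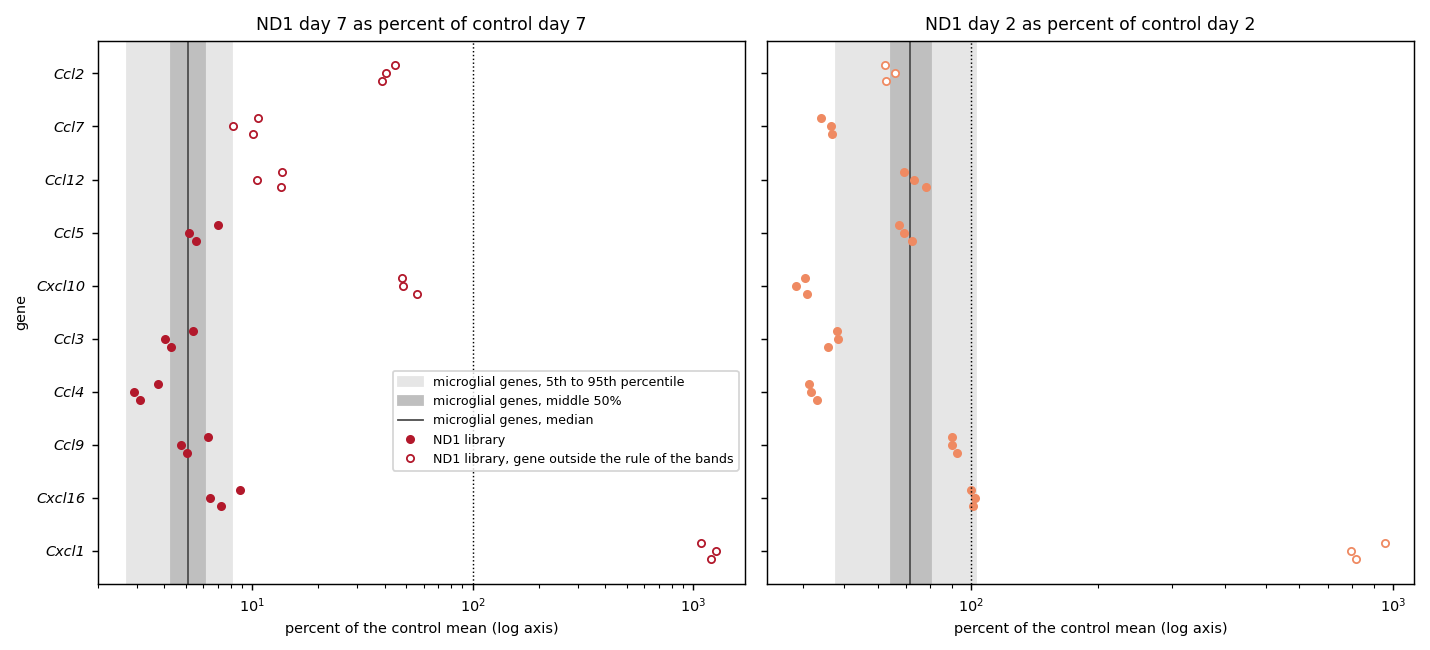
FPKM of each chemokine gene in every ND1 library as a percent of the control mean of the same day (log axis), day 7 left and day 2 right, over bands for other microglial genes (middle 50% and 5th to 95th percentile). Open points are genes that do not meet the rule of the bands on that day, among them Ccl2 and Cxcl10 at 41.2% and 50.7% on day 7. Cxcl10, Ccl4, Ccl7 and Ccl3 lie left of the band's middle on day 2.

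A fit relative to the mean of the 15 pan-myeloid genes, which were lower by 3.89 on the log2 scale in ND1 cells on day 7 and by 0.37 on day 2, gave the members' changes beyond that shift. On day 7 Cxcl1, at 6.50, Cxcl10, at 3.05 (SE 0.13), Ccl2, at 2.67 (SE 0.09), and Ccl12, at 1.16 (SE 0.12), were called higher, in a fit where 93.2% of all tested genes were called higher, and no member was called lower (background 0.0882%). Ccl4 came nearest, at -0.97 (SE 0.05). On day 2 only Cxcl1 was called, higher by 1.59 (SE 0.18; background 14.4% higher and 0.0662% lower), and Cxcl10 and Ccl4 were at -0.94 and -0.88. Without control day 7 replicate 2, Ccl4 passed as lower on day 7, at -1.01. The microglia markers were also tried as the baseline, of which 7 of 8 passed the filter and entered the mean. With them Ccl4 was called lower on day 7, at -1.14, and Ccl12, at 0.99, was not called. On day 2 Cxcl10 and Ccl4 were called lower with that baseline, at -1.19 and -1.12.

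Against cultured neurons all 10 members were higher in ND1 day 7 (background 7.29% called higher and 6.24% lower). The differences ran from 1.46 (SE 0.08, adjusted p = 1.78e-09) for Ccl7 to 4.56 (SE 0.09, adjusted p = 4.13e-14) for Ccl5, with a median of 2.49 beside 0.06 over all tested genes. Cxcl1 was higher by 1.85 (SE 0.15, adjusted p = 8.32e-08), with ND1 day 7 at 9.23 to 10.7 FPKM and neurons at 1.52 to 2.43. The pan-myeloid sum moved with these values, at 1089 to 1449 FPKM in ND1 day 7 against 114 to 129 in neurons, and its part in them was not tested. Neurons themselves were lower than control day 7 for 9 members (background 25.3%), from -2.43 for Cxcl10 to -8.64 for Ccl5, and Cxcl1, at 0.76 (SE 0.15, adjusted p = 2.90e-04), was under the size rule, which it met, at 1.30, with a pseudocount of 0.1. These comparisons share their ND1 day 7, neuron or control day 7 libraries with each other and with the contrast of ND1 and control, so they are not independent of it.

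Chemokine receptor genes were mostly too weakly expressed to test. Of 23 chemokine receptor genes listed, 8 were tested, and on day 7 5 were lower and 2 higher in ND1 than in control cells, beside 24.5% lower and 25.7% higher of all tested genes. Ccr1 did not pass on either day, at -0.42 and -0.40, and Cxcr3, the receptor of Cxcl10, was lower on day 7, at -1.24 (SE 0.04), from 1.55 ± 0.09 FPKM in control cells. Ccr2, Cxcr2 and Cxcr6 averaged under 1 FPKM in every group and were not tested.

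Ccrl2, an atypical receptor that binds chemerin, and Cxcr4, the receptor of Cxcl12, were lower on day 7 by 3.13 and 2.79. Ackr1, the Duffy antigen that takes up Ccl2, Ccl5 and Cxcl1 among others, was listed as higher, at 3.61 (SE 0.09), with 13.2 ± 0.95 FPKM in ND1 day 7 and 0.171 ± 0.15 in control day 7. Its annotated span of 1618 bases lies within that of Cadm3 over 1612 bases, and Cadm3, a neuronal adhesion gene, was at 60.9 to 61.6 FPKM in ND1 day 7 and 0.503 to 0.784 in control day 7, so reads of Cadm3 and Ackr1 cannot be told apart here. Adam17, a protease that sheds Cxcl16, averaged 5.70 ± 0.65 FPKM in ND1 day 7 and 48.8 ± 0.80 in control day 7, a log2 change of -2.90 (SE 0.05, adjusted p = 2.02e-15), and Adam10, which does so too, changed by -0.79 and was not called.

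Of 27 other chemokine ligand genes, 13 were tested. On day 7 3 were lower in ND1 cells, Ccl6, at -4.84 (SE 0.12), Pf4, at -3.74 (SE 0.05), and Ccl8, at -3.27 (SE 0.12), and 4 were higher, led by Ccl27a at 3.79 (SE 0.20). These counts are near the shares of all tested genes, 24.5% lower and 25.7% higher. Their median was -0.07, beside 0.04 over all tested genes. Ccl27a, a skin-homing chemokine in the mouse with near-identical copies among which reads may be split, averaged 34.6 ± 1.1 FPKM in ND1 day 7, 47.8 ± 7.9 in neurons and 1.68 ± 0.94 in control day 7. Cx3cl1, the neuronal ligand of the microglial receptor Cx3cr1, was also higher, at 9.29 ± 0.31 FPKM in ND1 day 7, against 28.3 ± 1.4 in neurons and 3.07 ± 0.49 in control day 7. On day 2 Ccl27a and Cx3cl1 were the 2 of 13 called higher, at 2.61 and 1.18 (background 9.09%). None was lower (background 0.618%).

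In control cells the change over time reached other ligands too. Of 13 tested, 5 were lower on day 7 (background 3.79%) and 2 higher (background 3.9%). Among those lower were Cxcl9, at -2.35, and Cxcl11, at -1.65, which like Cxcl10 bind CXCR3, and Cxcl2, at -2.21. The higher ones were Cx3cl1, at 1.73, and Ccl27a, at 1.07. Of the upstream cytokines, 4 of 5 tested were lower, Il1b at -3.54 (SE 0.05), Ifnb1 at -2.81 (SE 0.14), Il6 at -2.05 (SE 0.10) and Il1a at -1.41 (SE 0.07), while Tnf changed by -0.75 (background 3.79% lower). Of 20 genes of NF-kappaB and interferon regulators, 4 were lower, Nfkb2 at -1.56, Irf7 at -1.47, Relb at -1.36 and Nfkbia at -1.27, and none was higher. The median of these 20 was -0.71, beside 0.01 over all tested genes.

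The same regulators were lower in ND1 cells on day 7 in 19 of 20 cases (background 24.5%), with a median of -2.80 beside 0.04, and in none of 20 on day 2 (background 0.618%), with a median of -0.37 beside -0.04. Irf7, which drives interferon genes, led at -4.62 (SE 0.07), with 29.3 ± 4.0 FPKM in ND1 day 7 and 739.7 ± 6.4 in control day 7. Fos was the one not called, at -0.05. Tnf, Il1a and Il1b were lower on day 7, at -2.99, -2.61 and -1.99, and Il1b and Il6 on day 2, at -1.08 and -1.12. Of the pan-myeloid list, 14 of 15 genes were called lower on day 7 (background 24.5%) and none on day 2. The regulators likewise had none on day 2, whereas 2 of 5 tested cytokines were called lower then (background 0.618%).

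The genes whose FPKM ran most closely with each member over the 15 libraries differed between members. For Ccl5 they were Rsad2 (Pearson r = 0.999), Csf1 (r = 0.999) and Isg15 (r = 0.996), of which Rsad2 and Isg15 are interferon-stimulated, and for Ccl7 Mina, Mx1 and Pim1. Ccl12 ran with Saa3, Gbp2 and Ms4a4c (r = 0.996 to 0.997), and Ccl2 with Zbtb2, Gtf2f1 and Zkscan6 (r = 0.992 to 0.993). Ccl9 ran with Vamp8, Ms4a6b and Spi1, Ccl3 with Ptpn6, Hk3 and Pik3ap1, Ccl4 with Clec4d, Fermt3 and Clec12a, and Cxcl16 with Renbp and Pld4, all at r of 0.998 to 1.000. Cxcl10 had Thbs1, Taf3 and Knop1 (r = 0.989 to 0.992), and Cxcl1 had Pard6b, Podxl and Dctd (r = 0.986 to 0.989). The libraries form 5 groups, so these are descriptions of group patterns, with no p.

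CpG methylation around the annotated starts was read for the 5 members whose RefSeq promoter was at hand. It was the mean of the deposited fractions within 500 bases on either side, with 1 library per group and unknown depth. Cxcl1 was highly methylated, at 85.8% over 28 positions in the ND1 library and 87.6% over 33 positions in the control library. Cxcl10 was at 21.1% in the ND1 library and 23.4% in the control library over 19 positions each, with values of 0 next to the start and maxima of 83.3% and 93.8% towards the edges. Ccl12 was at 12.6% in the ND1 library and 17.4% in the control library over 6 positions each. Ccl3 was at 6.44% over 11 positions in the ND1 library and 6.52% over 10 in the control library, and Ccl9 at 53.3% in the ND1 library and 52.3% in the control library over 5 each. Over all annotated starts the median was 15.5% in the ND1 library and 15.2% in the control library.

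The largest ND1 minus control gap of the 5 was that of Ccl12, and its SD over positions, 14.0 and 21.6 percentage points, was wider than the gap. Within 1000 bases on either side the gap turned round, at 42.9% in the ND1 library and 37.9% in the control library over 16 positions each. With no replicate there is no test of these differences. The Cxcl1 promoter shown above held 10 of the CG pairs that can carry the mark, beside 5 in Cxcl10, 2 in Ccl9 and 1 in Ccl12 (median over all promoters 6). Over whole annotated gene spans Ccl5 was at 89.3% in the ND1 library and 91.0% in the control library, Ccl2 at 65.5% and 61.7%, and Cxcl16 at 38.2% and 37.7%. The spans of Ccl7 and Ccl4 differed between the ND1 and control libraries by less than 1 percentage point, at 87.5% and 87.1% and at 58.3% and 58.6%, and the median over genes was 68.4% in both.

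**Figure D5:**
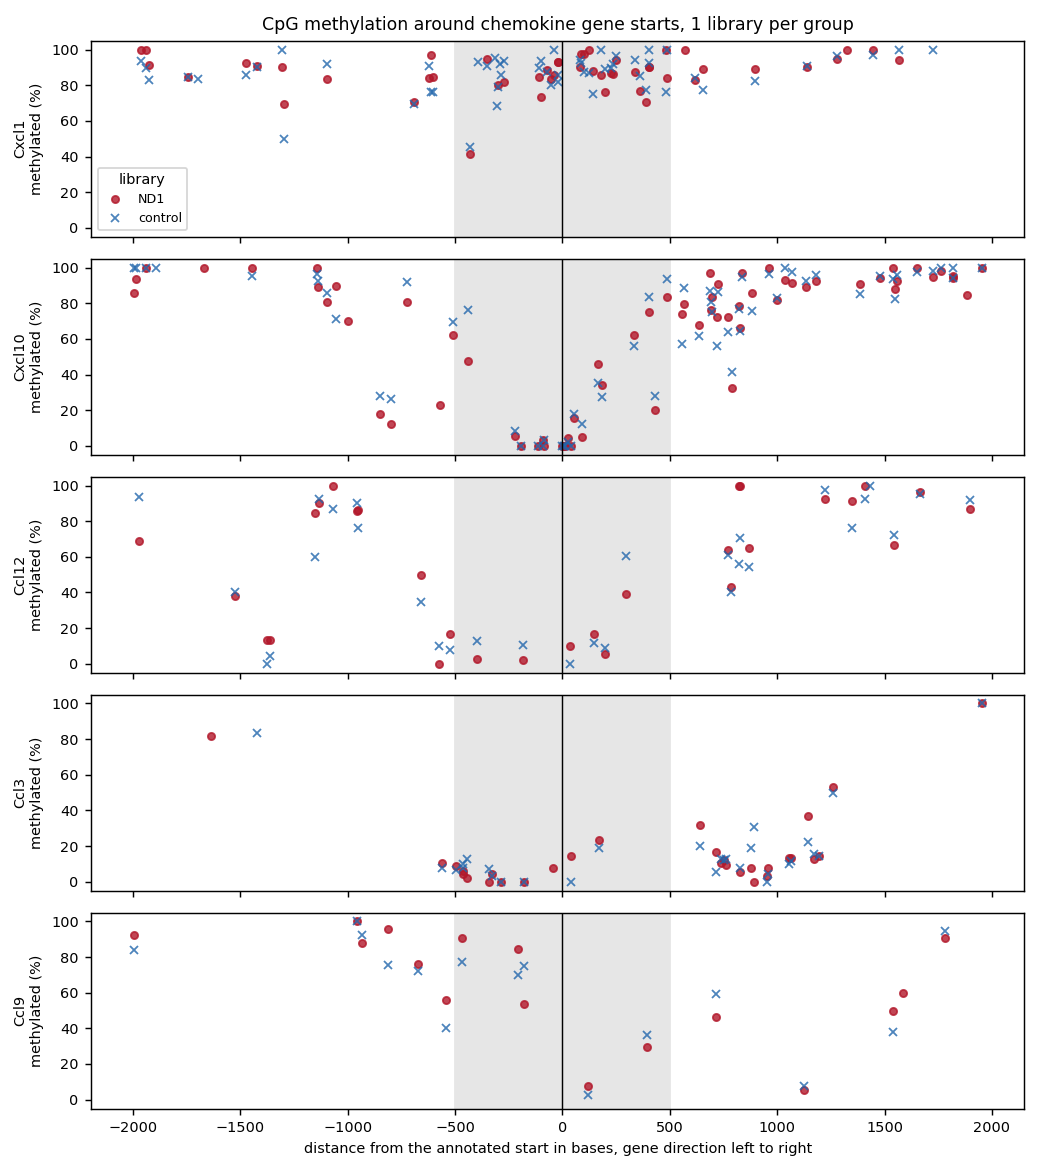
Methylated percent at each listed CpG against the distance in bases from the annotated start (gene direction left to right) for 5 chemokine genes in the ND1 library (circles) and the control library (crosses), 1 library each; grey marks the 500 bases on either side. Cxcl1 averages 85.8% in the ND1 library and 87.6% in the control library within the window, whereas Cxcl10 drops to 0 at the start in both libraries.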

How the data were processed

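RNA was measured in 15 libraries (5 groups of 3) and CpG methylation in 2. The authors deposited gene-level FPKM, made with TopHat, Bowtie2, Cuffdiff and Cufflinks on mm10 per the submitters' processing notes, with no versions given. The bisulfite files deposited by the authors hold a methylated fraction per CpG with no coverage, so their depth is unknown; the tool behind each is not given in the sources used here. Their second column was found to be the C of each CG in 100% of 35715 sampled positions. Sequencing depth of the RNA libraries was not measured, because FPKM is already divided by library size. Ratios of low values between libraries gave a relative estimate of what 1 read is worth, between 0.724 and 1.14 relative to control day 2 replicate 1.

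The test was limma 3.58.1 (R 4.3.3) on log2(FPKM + 1), with a mean for each of the 5 groups, a trend in the prior variance and Benjamini-Hochberg adjustment over the 13602 tested genes of a comparison. A gene was called at an adjusted p under 0.05 and an absolute log2 change of at least 1. The scale understates changes of weakly expressed genes. On simulated data the fit was tested before use. Replicate numbers did not pair libraries. The tables were read with Python 3.11.15 and pandas 2.3.3. Of each gene list the counts are given and up to 4 called genes with the largest change in a comparison are named, besides receptors and proteases of the members; a few genes that the rules would name are not reported here. The members and the lists were chosen with earlier results of these data known. Symbols numbered 24293 in each table, of which 4 entries were duplicated and 4024 were at 0 in all libraries. Alternatives covered the pseudocount, filter, scaling, variance trend, samples in the fit, replicate block, leaving out each library, the myeloid baseline and the methylation window.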

Additional observations from a re-analysis of the deposited data

Results flagged for a closer look

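The effect of ND1 differed between day 7 and day 2, by the interaction test of the same fit, for 8 of the 10 chemokine genes. The difference, day 7 minus day 2 on the log2(FPKM + 1) scale, was -4.00 for Ccl9, -3.62 for Ccl4, -3.61 for Cxcl16, -3.55 for Ccl5, -3.31 for Ccl3, -2.29 for Ccl12, -1.96 for Ccl7 and 1.38 for Cxcl1. Of all tested genes 20.8% passed the same test as lower and 20.5% as higher. The Cxcl1 call depends on the pseudocount: with 0.1 in place of 1 its difference was 0.88 (adjusted p = 0.0817) and was not called. No group had enough libraries for a test of single outlying values.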

How the results depend on the processing

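Over 1930 comparisons of a member's value with an alternative, 1914 kept their direction and side of the threshold, 5 lost and 7 gained a call and 4 changed sign. The cause was not tested. Of the 1930, 640 did not leave out a library, and 626 of these stayed the same. The rest each left out 1 library. Where that library was in no group of the contrast, the fitted change could not move. With quantile normalization the ND1 contrast on day 2 called 0 members higher and 2 lower, with Ccl9 at 0.038 and Cxcr3, a receptor, at -0.46, and called 817 genes higher and 159 lower in all, against 1237 and 84. With a pseudocount of 0.1 the interaction called 0 members higher, with Ccl27a at -0.19, while control day 7 against control day 2 and neurons against control day 7 each called 1, Cxcl1. The same pseudocount called 2367 genes higher and 157 lower in the ND1 contrast on day 2, 1115 higher and 777 lower (531 and 516 before) in control day 7 against control day 2, and 1737 higher (991 before) in ND1 day 7 against neurons. With the microglia list as the baseline 1 member was called lower on day 7 and 2 on day 2, and Ccl9 was at -0.015 on day 2; without Coro1a in the pan-myeloid list, tried after the data were seen, Ccl5 was at 0.060 and Ccl7, at 1.06, was called on day 7. Within 1000 bases of its start Ccl12 was at 42.9% in the ND1 library and 37.9% in the control library, a gap opposite in sign to that within 500 bases. Leaving out each library in turn kept every count of members called but 1. The count called lower on day 7 relative to the myeloid list, 0 in the main fit, ranged from 0 to 1. Leaving out a library also moved 2 values near 0 across it: Cxcl16 on day 2 (-0.011 to 0.038) and the interaction of Ccr1 (-0.111 to 0.081).

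Libraries of equal replicate number did not deviate together, with 2 of 30 pairs above an r of 0.1 and a range of -0.226 to 0.161, and 2 of 15 libraries correlated best with their own number. The fit with a replicate block changed no count of members, and called 8 lower and 1 higher on day 7 as before. FPKM without counts sets no floor for the weakest values, such as Cxcl1 in control day 2 and Ccl12 in neurons.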
